A study of Homo sapiens with 8 samples.

Results

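The 6 genes of the CCAAT/enhancer-binding protein (C/EBP) family, CEBPA, CEBPB, CEBPD, CEBPE, CEBPG and DDIT3, were chosen by name, as members of the family, from 20098 protein-coding genes. For each gene, the peaks of 2 histone marks were taken over the gene and 50 kb on each side, cut at the next protein-coding gene, and at the transcription start site (TSS). The cells were HL-60, an established human leukemia line. The ATRA group received 1 µM all-trans retinoic acid (ATRA) for 4 days, and the control group received the same amount of ethanol, the solvent, with the medium and agent renewed once. Each mark was measured by ChIP-seq in 2 ATRA and 2 control libraries, 8 libraries in all. HL-60 is 1 cell line, and the labels do not say that the replicates came from separate cultures, so the errors below measure the spread between libraries, which may be technical.

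C/EBP proteins are leucine zipper transcription factors that bind DNA as dimers. In the myeloid lineage, C/EBPα is known for the step into granulocyte-monocyte progenitors, C/EBPε for the late maturation of granulocytes, and C/EBPβ for granulocyte production under demand. H3K4me3 marks active promoters, whereas H3K27ac marks active promoters and enhancers, so the marks show where a gene is set up for transcription but do not measure its RNA or protein.

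The clearest difference between ATRA-treated and control cells was at CEBPB, where H3K27ac covered 23065 and 16120 bp in the ATRA libraries and 5654 and 5268 bp in the control libraries. Most of the added length lay 8 to 50 kb downstream of the gene, with a further part just upstream of its TSS. The CEBPB difference did not pass the test over all loci (limma adjusted p = 0.188), and 9.37% of loci had one at least as large. After each library was scaled to its total length under peaks, the CEBPB groups overlapped. CEBPA was marked by H3K27ac mainly downstream of the gene in both conditions, including its known enhancer 37 to 42 kb away, and its groups overlapped. CEBPE was covered by both marks across the gene with or without ATRA. CEBPD and DDIT3 were marked at their promoters, and CEBPG at its promoter and, in replicate 2 of each group, also far upstream.

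To show the DNA behind these differences, 300 bases are printed from 3 H3K27ac stretches, read from GRCh37 along the strand of the gene. The first is a stretch 39.7 to 43.0 kb downstream of the CEBPA TSS that was under H3K27ac peaks in all 4 libraries. It overlaps the enhancer and reaches beyond its end at 42 kb, but the printed bases lie within the enhancer. The others are the longest stretches of the CEBPB window, one upstream and one downstream, that were under peaks in both ATRA libraries and in neither control library. Both directly adjoin a control peak, so they are parts of ATRA peaks that extend beyond it and not separate marked regions. Capitals mark a match to the C/EBP site TTGCNNAA on either strand. The bases shown are centered on the match nearest the middle of the stretch, or on the middle where it had none.
CEBPA downstream enhancer, chr19:33751948-33752247, minus strand, 41.2 to 41.5 kb downstream of the TSS: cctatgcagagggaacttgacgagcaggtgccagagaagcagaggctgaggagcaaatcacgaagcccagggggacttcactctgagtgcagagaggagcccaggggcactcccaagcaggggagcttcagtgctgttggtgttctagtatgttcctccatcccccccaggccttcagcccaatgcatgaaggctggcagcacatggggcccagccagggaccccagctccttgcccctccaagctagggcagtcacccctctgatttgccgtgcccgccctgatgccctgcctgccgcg
CEBPB upstream stretch, chr20:48805658-48805957, plus strand, 1.7 to 1.4 kb upstream of the TSS: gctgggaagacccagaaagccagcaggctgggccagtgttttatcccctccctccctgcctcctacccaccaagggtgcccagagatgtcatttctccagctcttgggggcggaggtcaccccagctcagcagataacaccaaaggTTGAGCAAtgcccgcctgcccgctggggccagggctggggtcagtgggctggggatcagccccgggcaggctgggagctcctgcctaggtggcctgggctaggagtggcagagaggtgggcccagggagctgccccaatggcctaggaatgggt
CEBPB downstream stretch, chr20:48838067-48838366, plus strand, 30.7 to 31.0 kb downstream of the TSS: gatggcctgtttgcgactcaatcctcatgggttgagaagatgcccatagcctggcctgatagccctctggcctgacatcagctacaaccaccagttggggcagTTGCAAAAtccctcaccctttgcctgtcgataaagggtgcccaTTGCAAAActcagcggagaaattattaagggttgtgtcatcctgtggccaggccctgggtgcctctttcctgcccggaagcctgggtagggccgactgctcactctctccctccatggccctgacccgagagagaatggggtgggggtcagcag

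The sequence upstream of CEBPB lies in an intron of CEBPB-AS1, a long noncoding RNA annotated on the opposite strand. The other sequences lie in no annotated gene. Over its full length of 1389 bp, the CEBPB downstream stretch held 3 matches to TTGCNNAA, 2 of them in the printed bases. The CEBPB upstream stretch held 1 match in 2005 bp, and the CEBPA stretch held 0 in 3344 bp. These are 2.16, 0.499 and 0.0 matches per kb, in that order. For comparison, 9953 stretches of the genome of at least 300 bp were under H3K27ac in both ATRA libraries, in neither control library and under no H3K4me3 peak, and 13.7% of them held a match in their middle 300 bases. Among the 3575 such stretches that were under H3K27ac in all 4 libraries, this share was 13.5%. The printed CEBPB bases were centered on a match, so they hold one by choice and cannot be compared with these shares. Over their full length, the stretches of the ATRA libraries held 0.507 matches per kb and those of all 4 libraries 0.517. The CEBPB upstream and the CEBPA stretch lie partly under H3K4me3 peaks of some libraries, which these background stretches do not. The CEBPA stretch held 5 matches each to the RUNX letters TGTGGT and to AGGTCA, the letters that retinoic acid receptors bind, and 3 to the ETS letters GGAAGT. The CEBPB upstream stretch held 4 matches to AGGTCA and the downstream stretch 2. In the order printed, the RUNX letters occurred at 1.5, 0.499 and 0.0 matches per kb and the ETS letters at 0.897, 0.499 and 0.72. Over all stretches of all 4 libraries these were 0.821 and 0.782 per kb, and over those of the ATRA libraries 0.831 and 0.749. The motifs were kept from a longer list after matches were seen. The AGGTCA letters occurred at 1.5, 2.0 and 1.44 matches per kb in these stretches, in the order printed, against 0.867 per kb over all stretches of all 4 libraries and 0.897 per kb over those of the ATRA libraries. Such matches describe letters and not binding, since no factor was measured.

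Across the genome, the H3K4me3 libraries held between 13241 and 16487 peaks over 47.7 to 63.2 Mb. The H3K27ac libraries were less even, at 15457 to 39332 peaks over 28.8 to 86.1 Mb, and the shortest total was that of control replicate 1. The read depth behind the peaks is unknown, so it cannot be told how far the totals follow depth. H3K27ac under both ATRA libraries and neither control library made up 17.6 Mb of the genome, against 2.1 Mb under both control libraries and neither ATRA library, and each gene is therefore read against all others. As a check of the cells, H3K4me3 peaks held the TSS of the myeloid genes MPO, SPI1, CD33 and CSF3R in all 4 libraries, but those of ELANE and LYZ in none. They held none of the 4 T cell genes and neither of the monocyte genes CD14 and CSF1R. Of the B cell and erythroid genes, CD79A and KLF1 had a TSS peak in 3 libraries each, and the other 4 had none.

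To compare the genes, the length under peaks was summed in each window. For H3K27ac, both ATRA libraries were above both control libraries at 3 of the 6 genes, CEBPB, CEBPD and DDIT3, and at 39.1% of the 14972 loci tested, so the share among the C/EBP genes was near that of all genes. Both ATRA libraries were below both controls at none of the 6, against 4.21% of all loci. When each library was scaled to its total length under peaks, none of the 6 was above and CEBPA, CEBPD, CEBPE and CEBPG were below, against 18.9% above and 23.6% below over all loci, and the median of all loci moved from 0.43 to -0.05. For H3K4me3, CEBPB and CEBPD were above, against 37.3% of 14215 loci, and none of the 6 was below, against 4.56%. Scaled, CEBPB was above and 3 of the 6 were below, against 16.6% and 24.8%. By limma, 0.0% of the loci of either mark reached an adjusted p of 0.05, while 2264 loci for H3K27ac and 1337 for H3K4me3 had an unadjusted p below 0.05.

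**Figure D1:**
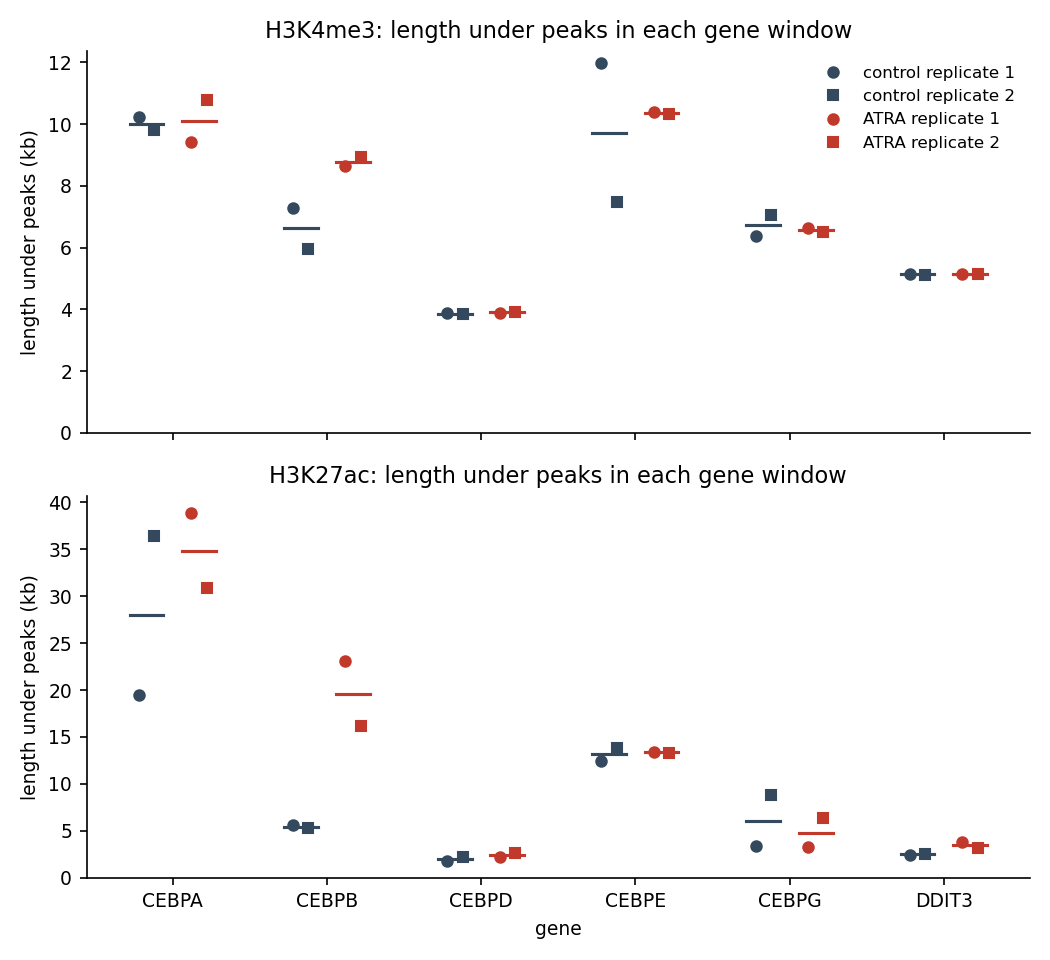
Length under H3K4me3 (top) and H3K27ac (bottom) peaks in the window of each C/EBP gene, in kb on a linear axis. Each point is 1 library, circles are replicate 1, squares are replicate 2, and short lines are the means of 2 libraries. For H3K27ac, the CEBPB groups are separated by more than the spread within either, whereas the CEBPA control libraries lie at 19479 and 36426 bp.

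CEBPB encodes C/EBPβ and lies at chr20:48807367-48809205 on the plus strand (hg19). Its window was cut on the left at PEDS1, whose TSS is 37.1 kb away, and ran the full flank on the right, where the next gene, PTPN1, starts 319.5 kb away. The H3K27ac difference over the window was 1.65 ± 0.39 on the log2(bp + 1000) scale (SE, n = 2 against 2; limma adjusted p = 0.188). With the replicate number as a block, the limma adjusted p was 0.0168, and 16.3% of all loci were then called higher. In these bulk samples, a larger share of cells with the mark and a longer mark in each cell cannot be told apart. A difference of at least this size occurred at 9.37% of all loci, where the median was 0.43. Scaled to the library totals, the CEBPB difference was 0.82 and its groups overlapped.

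Beyond the promoter, the separation was wider. H3K27ac that lay under no H3K4me3 peak of any library covered 16723 and 8704 bp of the CEBPB window in the ATRA libraries and 864 and 779 bp in the control libraries. Both ATRA libraries were above the controls, as at 36.2% of the 10894 loci with such H3K27ac. The log2 difference was 2.85 ± 0.71 (SE; limma adjusted p = 0.148), and 3.22% of these loci had a difference at least as large. With the replicate number as a block, the limma adjusted p was 9.76e-06, and 23.5% of these loci were called higher. Scaled to the library totals, the difference was 2.23, where 29.2% of these loci were above and their median was 0.29, and with only peaks of a -log10 q of at least 5 it was 0.50. Without ATRA replicate 2 the adjusted p was 0.014, and without control replicate 2 it was 0.0152. Without ATRA replicate 1 it was 0.0797, and without control replicate 1 it was 0.300, with differences of 2.41 to 3.28 over the 4 fits. In each of them the group of 1 library is assumed to vary like the other.

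Most of this H3K27ac lay from 8 to 50 kb downstream of the CEBPB TSS, where no gene is annotated and no library had an H3K4me3 peak. There, H3K27ac covered 14662 and 6506 bp in the ATRA libraries against 864 and 281 bp in the control libraries. From 10 to 20 kb downstream it was 568 and 502 bp in the ATRA libraries, and neither control library had a peak. From 20 to 30 kb downstream it was 5617 and 2605 bp against 545 and 281 bp, and from 30 to 40 kb it was 5028 and 2001 bp against 319 and 0 bp. From 40 to 50 kb it was 3215 and 601 bp in the ATRA libraries, and neither control library had a peak. In each of these 4 bins ATRA replicate 1 had the longest coverage and both controls the shortest. Only 281 bp of this region, 29.7 to 29.9 kb from the TSS, was under H3K27ac in all 4 libraries.

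**Figure D2:**
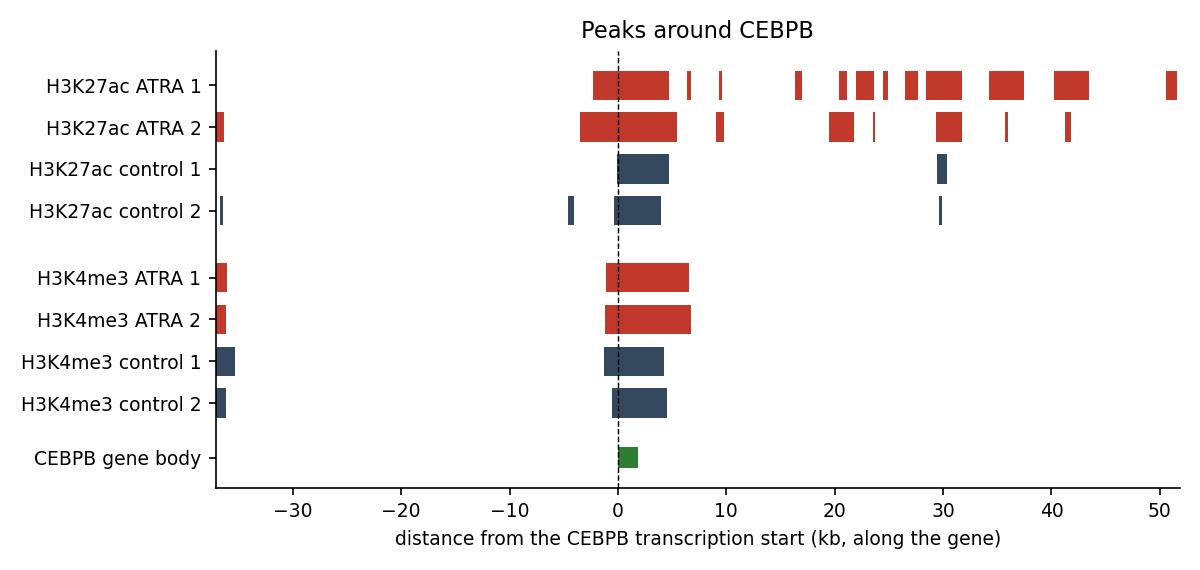
Deposited peaks of the 8 libraries in the CEBPB window, by distance from the TSS in kb along the gene. Bars are peaks, red for ATRA and dark blue for control, the green bar is the gene, and peaks at the left edge reach in from PEDS1. The ATRA libraries hold H3K27ac peaks from 8 to 50 kb downstream where the control libraries hold 864 and 281 bp.

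The promoter of CEBPB was marked in every library, and its H3K27ac reached further upstream with ATRA. In the 2 kb upstream of the TSS, H3K27ac covered all 2000 bp in both ATRA libraries but 62 and 323 bp in the control libraries. The peak over the TSS extended 2.3 and 3.5 kb upstream in the ATRA libraries and 0.1 and 0.3 kb in the controls, whereas its downstream reach overlapped between the groups (4.7 and 5.4 kb against 4.7 and 4.0 kb). In the 4001 bp around the TSS, H3K27ac covered the full length in both ATRA libraries against 2063 and 2324 bp, a log2 difference of 0.65 ± 0.13 (SE; limma adjusted p = 0.345). In a fit that also held the genes with no H3K27ac around the TSS, the limma adjusted p was 0.00467. In that fit 649 genes passed, against 0 in the fit without them. Both ATRA libraries filled the window, so it could not show a spread between them. Scaled to the library totals, the CEBPB difference around the TSS was -0.05.

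In all, 8 H3K27ac stretches of the CEBPB window, together 5476 bp, were under peaks in both ATRA libraries and in neither control library, and there were none of the opposite kind. The printed CEBPB sequences come from the 2 longest, of 2005 bp, which ends 0.3 kb before the TSS, and of 1389 bp, 30.3 to 31.7 kb beyond it. The former ends where the TSS peak of control replicate 2 begins. The latter begins where a peak of control replicate 1, from 29.5 to 30.3 kb, ends.

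H3K4me3 at CEBPB was longer with ATRA on the other side of the TSS. The H3K4me3 peak over the TSS measured 7644 and 7951 bp in the ATRA libraries and 5523 and 5053 bp in the control libraries. Its downstream reach was 6.6 and 6.8 kb against 4.2 and 4.5 kb, and the upstream reach overlapped between the groups. The log2 difference of 0.49 ± 0.10 (SE; limma adjusted p = 0.375) was matched or exceeded by 8.11% of the 9494 genes with an H3K4me3 peak over the TSS in all 4 libraries. Both ATRA peaks were longer than both control peaks at 42.7% of these genes. A stretch of 2085 bp, from 4.5 to 6.6 kb downstream, was under H3K4me3 in both ATRA libraries only.

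DDIT3, which encodes the stress-induced factor CHOP, was the other gene with a longer H3K4me3 peak at the TSS. It lies at chr12:57910371-57915520 on the minus strand, and because the neighbors MARS1 and MBD6 overlap its ends, its window is the gene itself. H3K4me3 covered this window almost fully in every library, from 5114 to 5150 bp. The peak over its TSS measured 15451 and 13802 bp with ATRA and 10416 and 9864 bp in control cells, and it extended further on both sides. The log2 difference was 0.49 ± 0.12 (SE; limma adjusted p = 0.384), reached by 8.07% of genes. The same peak covers the TSS of MBD6, 1.0 kb away on the opposite strand, so its length cannot be assigned to either gene.

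H3K27ac in the DDIT3 window covered 3802 and 3136 bp in the ATRA libraries and 2484 and 2498 bp in the control libraries. The difference of 0.35 ± 0.34 (SE; limma adjusted p = 0.670) was below the median of all loci, and it was -0.35 after scaling to the library totals. The 4001 bp around the TSS were fully covered in all 4 libraries.

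**Figure D3:**
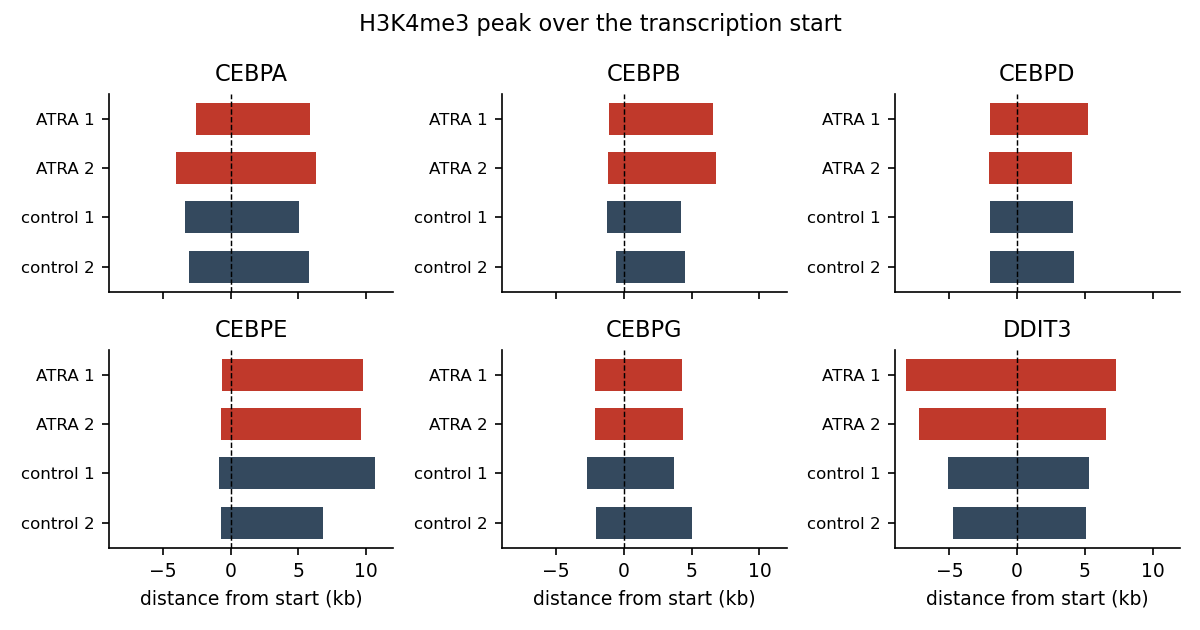
Extent of the H3K4me3 peak that holds the TSS (dashed line) of each C/EBP gene in the 2 ATRA (red) and 2 control (dark blue) libraries, in kb along the gene. The CEBPB peak reaches 6.6 and 6.8 kb downstream with ATRA against 4.2 and 4.5 kb, and the DDIT3 peak is longer on both sides, whereas the groups overlap at the other 4 genes.

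CEBPA encodes C/EBPα and lies at chr19:33790840-33793440 on the minus strand. Its window, chr19:33740840-33843440, is the longest of the 6 at 102.6 kb. It shares 28850 bp with the window of CEBPG, so peaks there count for both genes. H3K27ac covered 38838 and 30840 bp of the CEBPA window in the ATRA libraries and 19479 and 36426 bp in the control libraries. The ATRA libraries lay around control replicate 2, and the log2 difference was 0.36 ± 0.45 (SE; limma adjusted p = 0.745). Without control replicate 1, the library with the fewest H3K27ac peaks, it was -0.07.

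The H3K27ac of CEBPA was one-sided. The 50 kb downstream of the TSS held 37980 and 28954 bp in the ATRA libraries and 17825 and 29443 bp in the control libraries. The 50 kb upstream held 0 and 1886 bp with ATRA and 0 and 6682 bp in control cells. Downstream, 6 stretches with a total of 13812 bp were under H3K27ac in all 4 libraries, and the longest, of 4386 bp, lay 32.4 to 36.8 kb from the TSS. A further 8 stretches, together 4682 bp, were marked in both ATRA libraries and in neither control library, and 2 stretches with 130 bp in both control libraries only. The longest of those seen with ATRA only was 1173 bp, at 25.0 to 26.2 kb.

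The enhancer of CEBPA lies 37 to 42 kb downstream of its TSS and is known to be needed for CEBPA expression in myeloid progenitors. In these 5000 bp (chr19:33751441-33756440), H3K27ac covered 3575 and 3648 bp in the ATRA libraries and 2808 and 5000 bp in the control libraries. The groups overlapped, and the mean difference of -292.5 bp gave an exact permutation p of 1.0, two-sided, where 2 against 2 libraries allow no p below 0.33. H3K4me3 was nearly absent from it, with 43 bp in control replicate 1 and 0 bp in the other 3 libraries. In the wider stretch of 35 to 45 kb, H3K4me3 covered 0 and 449 bp in the ATRA libraries and 846 and 593 bp in the control libraries. This separation gave an exact permutation p of 0.333, two-sided, the smallest possible. Most of it came from a 593 bp stretch 42.2 to 42.8 kb from the TSS, under H3K4me3 in both control libraries and in neither ATRA library.

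**Figure D4:**
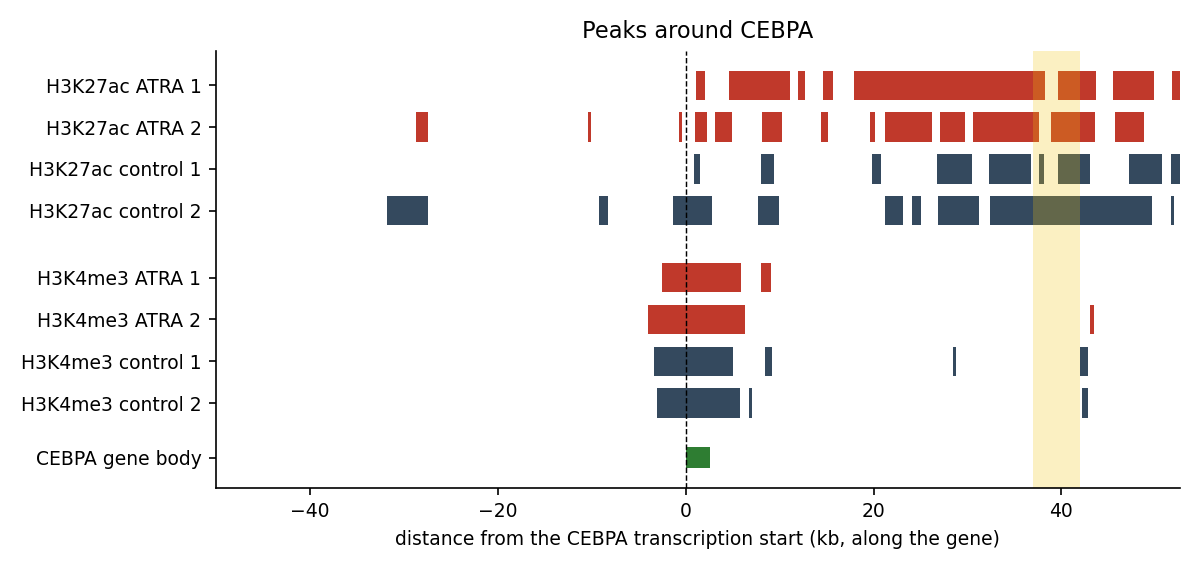
Deposited peaks of the 8 libraries in the CEBPA window, by distance from the TSS in kb along the gene, so that downstream is to the right. Bars are peaks, red for ATRA and dark blue for control, the green bar is the gene and the yellow band is the enhancer 37 to 42 kb downstream. All 4 H3K27ac libraries hold peaks in the band, which cover 2808 to 5000 bp of it, and most H3K27ac lies downstream of the gene.

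At the CEBPA promoter the marks differed in placement. H3K4me3 covered all 4001 bp around the TSS in every library, and its peak measured 8376 and 10329 bp with ATRA against 8407 and 8874 bp. In contrast, an H3K27ac peak held the TSS in control replicate 2 only. In the first 1 kb downstream of the TSS, H3K27ac covered 0 and 22 bp in the ATRA libraries and 95 and 1000 bp in the control libraries.

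CEBPE, at chr14:23586245-23589465 on the minus strand, encodes C/EBPε, and its window of chr14:23574199-23594503 was cut by CIROP and SLC7A8. A single H3K27ac stretch of 11113 bp, from just before the TSS to 10.5 kb downstream, was under peaks in all 4 libraries. Over the window, H3K27ac covered 13382 and 13335 bp in the ATRA libraries and 12408 and 13863 bp in the control libraries, a log2 difference of 0.02 ± 0.35 (SE; 95% interval -0.92 to 0.97; limma adjusted p = 0.985). H3K4me3 covered 10404 and 10326 bp against 11972 and 7469 bp. By length, neither mark separated the groups over the window. The -log10 q of the H3K27ac peak over the TSS was 1.2 and 2.3 with ATRA and 4.8 and 5.0 in control cells. With only peaks of at least 5, the H3K27ac difference over the window was -2.40. Both ATRA libraries were then below both controls, against 3.88% of all loci. Around the TSS, H3K27ac covered 2809 and 3921 bp with ATRA and 2586 and 2695 bp in control cells, with 0.25 ± 0.18 (SE; limma adjusted p = 0.711) on the log2 scale. Here H3K4me3 covered 2609 and 2679 bp against 2867 and 2681 bp, so that the higher ATRA library lay 2 bp below the lower control.

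CEBPD encodes C/EBPδ, known as an early response factor in inflammation, and lies on chromosome 8 between SPIDR and PRKDC. H3K4me3 covered the 4001 bp around its TSS in all 4 libraries. H3K27ac covered 2414 and 2826 bp of them in the ATRA libraries and 1887 and 1611 bp in the control libraries (log2 difference 0.40 ± 0.20 SE; limma adjusted p = 0.590). An H3K27ac peak held the TSS itself in both ATRA libraries, with lengths of 4957 and 6603 bp, and in neither control library. Control replicate 1, however, had a peak from 114 to 2223 bp downstream of the TSS. Control replicate 2 had peaks from -496 to -287 bp and from 600 to 3822 bp of the TSS. The -log10 q of these control peaks was 0.8 to 0.9, and that of the ATRA peaks was 2.7 and 1.1. Over the window, H3K27ac covered 2271 and 2683 bp against 1744 and 2208 bp, a log2 difference of 0.23 that was -0.42 after scaling to the library totals. H3K4me3 over the window was nearly equal in all libraries, at 3885 and 3916 bp against 3871 and 3859 bp.

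CEBPG encodes C/EBPγ, a widely expressed partner that lacks a strong activation domain, and lies at chr19:33864591-33873592 on the plus strand, next to CEBPA. H3K4me3 covered its promoter fully in all libraries, and the peak over the TSS measured 6422 and 6496 bp with ATRA and 6366 and 7073 bp in control cells. H3K27ac over its window covered 3249 and 6347 bp in the ATRA libraries and 3344 and 8806 bp in the control libraries. The peak over the TSS measured 3249 and 4668 bp in the ATRA libraries and 3344 and 3130 bp in the control libraries. Control replicate 2 also had a peak of 4392 bp from -43.8 to -39.4 kb of the TSS, and ATRA replicate 2 had 1332 bp there, in the stretch shared with the window of CEBPA. Both replicates numbered 2 were higher than both numbered 1, and the difference between groups was -0.22 ± 0.60 (SE; limma adjusted p = 0.889).

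Around the TSS, H3K27ac was longer in both ATRA libraries at 3 of the 6 genes, CEBPB, CEBPD and CEBPE, against 33.6% of 10742 genes, and shorter in both at none, against 4.29%. Scaled to the library totals, these 3 differences were -0.05, -0.26 and -0.46 on the log2 scale. The share of all genes was then 10.9% above and 35.1% below, and their median moved from 0.24 to -0.25. For H3K4me3 around the TSS, none of the 6 was higher in both ATRA libraries, against 20.6% of 11083 genes, and CEBPE was lower in both, against 4.39%. The 4 genes that were covered in full in every library could show no difference in this window before scaling. With scaling, all 6 were lower, against 59.1% of genes, and none was higher, against 6.29%. For the 4 fully covered genes this was fixed by the library totals, 63.2 and 62.3 Mb with ATRA against 59.8 and 47.7 Mb. The same holds for any other gene covered in full in every library. None of the 6 was among the 0.126% of genes that passed the limma test for H3K4me3 around the TSS, and no gene passed it for H3K27ac there, with 1137 at an unadjusted p below 0.05.

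**Figure D5:**
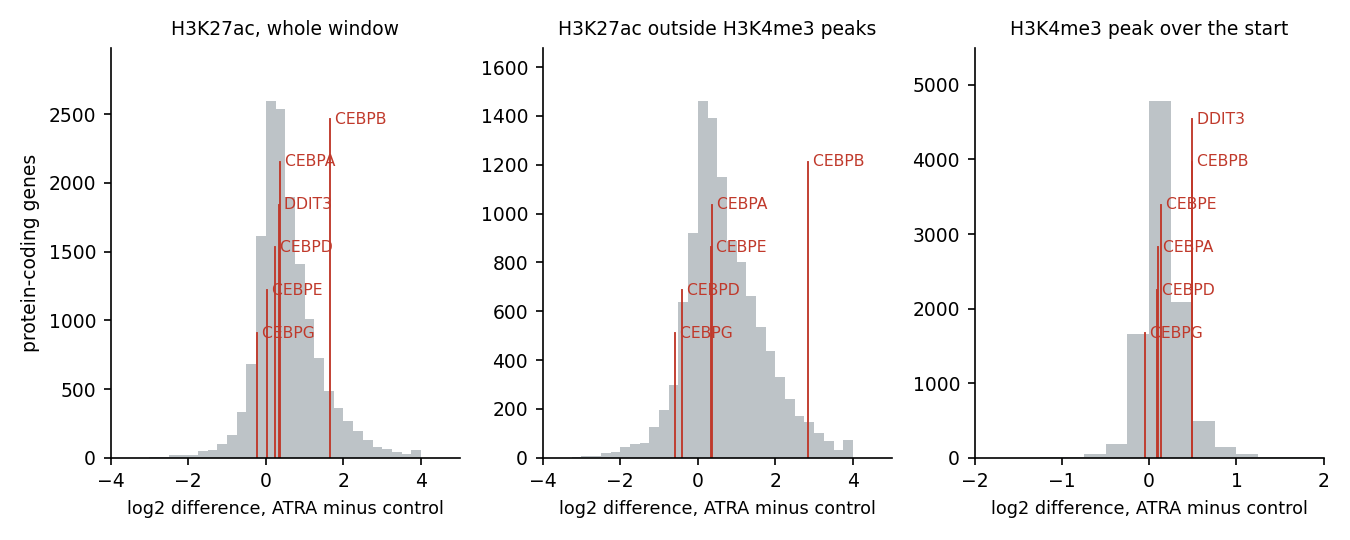
Distribution over protein-coding genes of the log2(bp + 1000) difference, ATRA minus control, with the C/EBP genes marked in red (values beyond ±4 are stacked at the ends, and the right panel spans ±2). Left, H3K27ac over the window. Center, H3K27ac outside H3K4me3 peaks, where CEBPB stands at 2.85. Right, the H3K4me3 peak over the TSS, where CEBPB and DDIT3 both stand at 0.49.

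The strength of the peaks differed between marks. The authors' -log10 q was 5 or more for 35 of the 37 H3K4me3 peaks in the 6 windows, but for 11 of the 93 H3K27ac peaks. At CEBPB the H3K27ac peak over the TSS had a -log10 q of 4.7 and 1.1 in the ATRA libraries and 2.8 and 1.1 in the control libraries, so the groups overlapped. With only peaks of at least 5, the CEBPB window kept 1 H3K27ac peak, in ATRA replicate 1, and the difference was 0.50.

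The genes most like each C/EBP gene in both marks were sought by the Euclidean distance of the length under peaks within 10 kb of the TSS over the 8 libraries. ZNF710 and TATDN2 were nearest to CEBPB, at 2.23 and 2.37 kb, and UAP1L1 and GPR107 to CEBPA, at 2.67 and 2.87 kb. ST3GAL4 and PRAM1 were nearest to CEBPE, at 2.31 and 3.32 kb. The nearest to CEBPD were ASF1A and ANKRD10, at 1.19 and 1.34 kb, and those to CEBPG were UBA6 and LSM8, at 0.87 and 1.19 kb. For DDIT3 they were MBD6 and ENSG00000285133, at 0.0 kb, which share its peaks.

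Genes that C/EBP factors are known to bind or pair with were then read in the same way. Of 20 myeloid genes known to be bound by C/EBP factors, H3K27ac over the window was longer in both ATRA libraries at 11 and shorter in both at 1, against 39.1% and 4.21% of all loci, with a median log2 difference of 1.12 against 0.43 over all loci. None passed the limma test. Scaled to the library totals, 7 were longer and 4 shorter, against 18.9% and 23.6% of all loci, with a median of 0.45 against -0.05. The largest differences were at S100A8, a calcium-binding protein of neutrophils, with 8437 and 11253 bp against 0 bp in both control libraries, and at its partner S100A9, with 8104 and 10983 bp against 0 and 200 bp. The lowest were at CTSG, a granule protease, with 903 and 2317 bp against 3207 and 3892 bp, and at LYZ, with 608 and 3801 bp against 687 and 11233 bp. H3K27ac around the TSS was longer with ATRA at 7 of 16 genes and shorter at 1, against 33.6% and 4.29% of all genes, and after scaling at 6 and 3, against 10.9% and 35.1%. H3K4me3 over the window was longer at 9 of 18 and shorter at 1, against 37.3% and 4.56% of all loci, and after scaling at 6 and 3, against 16.6% and 24.8%.

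Of 12 dimer partners and regulators of C/EBP proteins with H3K27ac, 5 were longer and 2 shorter in both ATRA libraries, against 39.1% and 4.21% of all loci, with a median of 0.45 against 0.43 over all loci. None passed the limma test. Scaled, 3 were longer and 3 shorter, against 18.9% and 23.6% of all loci, and the median was -0.25 against -0.05. BATF2, a leucine zipper factor of the AP-1 family, had 16295 and 11320 bp against 414 and 1071 bp, and BATF had 1235 and 7327 bp against 0 and 784 bp. On the lower side, TRIB3, a pseudokinase that is induced by ATF4 and DDIT3, had 5445 and 1772 bp against 24178 and 28345 bp. ATF3 had 1876 and 1096 bp against 3562 and 1676 bp, and its groups overlapped.

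Among 12 stress response genes around DDIT3, H3K27ac was longer at 4 and shorter at 2, against 39.1% and 4.21% of all loci, with a median of -0.04 against 0.43 over all loci. None passed the limma test. Scaled, none was longer and 9 were shorter, against 18.9% and 23.6% of all loci, with a median of -0.88 against -0.05. EIF2AK3, a sensor kinase of the endoplasmic reticulum, had 5474 and 9622 bp against 2617 and 1213 bp, and ATF4, whose difference was -0.02 after scaling, had 7404 and 9380 bp against 3519 and 5692 bp. ASNS, asparagine synthetase, had 0 and 874 bp against 1189 and 5206 bp, and TRIB3, which is in both lists, was the lowest. Around the TSS, H3K27ac was longer at 3 and shorter at 4 of the 12, against 33.6% and 4.29% of all genes. After scaling it was longer at 1 and shorter at 6, against 10.9% and 35.1%. TRIB3 there had 0 bp in both ATRA libraries and 4001 bp in both control libraries, and CHAC1, a glutathione-degrading enzyme, had 0 bp in both ATRA libraries against 3051 and 4001 bp.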

How the data were processed

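ChIP-seq of H3K4me3 and H3K27ac in ATRA-treated and control HL-60 cells was analyzed from 8 deposited peak files, 1 per library. Per the methods, reads were trimmed of adapters and mapped to hg19 by Bowtie, and MACS2 was run in its broad mode on every library. Input libraries were made, and their use in the peak call is not given in the sources used here. From the deposited files, the peak positions and the −log10 q-value were used. The fold and −log10 p-value columns hold values such measures cannot take and were not used. The number of reads is unknown, so precision is set by the 2 libraries of each group and counting error was not estimated.

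Gene bodies and TSS, defined as the 5′ end of the gene, came from the GRCh37 version of GENCODE release 44. The length under peaks was summed over the gene with 50 kb on each side, cut at the next protein-coding gene, and over 2 kb on each side of the TSS, 4001 bp in all. The length of the peak over the TSS and the H3K27ac outside all H3K4me3 peaks were added after the data were seen. Differences were fitted with limma 3.58.1 (trend and robust) in R 4.3.3 on log2(bp + 1000), for all protein-coding genes with a peak in at least 1 of the 4 libraries of a mark (for the peak over the TSS, in all 4), without a block, with Benjamini-Hochberg adjustment over those genes. Fold changes on this scale understate the change of short lengths. The script was tested on simulated data. The +37 to +42 kb stretch of CEBPA was compared with an exact permutation test. Sequences were read from GRCh37, and motifs were searched on both strands. A longer motif list was reduced to 4, and the printed bases were re-centered on a C/EBP match, after matches were seen.

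The genes and lists were chosen with earlier results of these data known. The text names the 6 genes, the genes that bound their windows, the 2 nearest genes of each and, from each list, the 2 largest differences in each direction where none passed the test. CHAC1 was named after its values were seen. Alternatives were a 20 kb flank, an uncut flank, the number of peaks, a −log10 q of at least 5, scaling to the library totals, equal peak numbers, a pseudocount of 100 bp, other filters and TSS windows, a replicate block and leaving out each library.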

Additional observations from a re-analysis of the deposited data

How the results depend on the processing

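The groups are 2 libraries each, the H3K27ac libraries range from 28.8 to 86.1 Mb under peaks, and the read depth is unknown, so short differences cannot be resolved. Scaling to the library totals moved most values, and which scale is the right one was not tested. Of the counts and differences recomputed for the C/EBP genes and for all loci, the CEBPB H3K27ac difference over the window was positive under every alternative, from 0.50 to 1.90, as was its H3K27ac outside H3K4me3 peaks, from 0.50 to 3.72, whereas its TSS difference turned to -0.05 with scaling. Both values of 0.50 rest on 1 peak, in ATRA replicate 1, 50.5 to 51.5 kb downstream, at a -log10 q of at least 5. At that threshold and with scaling, the ATRA libraries were not both above both controls over the CEBPB window.

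The number of loci with an adjusted p below 0.05 by limma changed with the setting, and the cause was not tested. For H3K27ac windows it was 0, against 815 for the number of peaks, 6 with all loci and 2614 with a replicate block. For H3K4me3 windows it was 0, against 129 with an uncut flank, 672 for the number of peaks, 59 with scaling and 22 with all loci. For H3K27ac around the TSS it was 0, against 30 at a -log10 q of at least 5, 649 with all loci and 97 in the 1 kb window, and 0 to 1089 without 1 library. For H3K4me3 around the TSS it was 14, against 153 with scaling, 22 with a pseudocount of 100 bp, 64 in the 1 kb window, 0 in the 5 kb window, 46 with any transcript TSS, and 123 to 1506 without 1 library. The fit with all loci could not be made for H3K4me3 around the TSS.

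Among the 6 genes, the count above in H3K27ac windows was 3, against 0 at a -log10 q of at least 5, 0 with scaling, 1 for the number of peaks and 3 to 5 without 1 library. The count below was 0, against 1, 4 and 0 in that order, 1 when compared within replicate numbers and 0 to 2 without 1 library. Over all loci, the share above was 8.97%, 18.9% and 19.1% under these 3 settings, and the share below was 3.88%, 23.6% and 1.92%. In H3K4me3 windows the count above was 2, against 1 with scaling, 0 for the number of peaks and 2 to 4 without 1 library, and the count below was 0, against 3, 1 and 0 to 1. Over all loci, 16.6% were above and 24.8% below with scaling, and 5.45% and 1.8% for the number of peaks. For H3K27ac around the TSS the count above was 3, against 0 with scaling and 0 at a -log10 q of at least 5, and the count below was 0, against 4 with scaling, 1 with equal peak numbers and 0 to 1 without 1 library. The 4 include DDIT3, which was covered in full in every library and which scaling alone made lower. Of all genes, 10.9% were above with scaling and 5.02% at a -log10 q of at least 5. Below were 35.1% with scaling and 7.67% with equal peak numbers. For H3K4me3 around the TSS the count above was 0, against 1 in the 5 kb window and 0 to 1 without 1 library, and the count below was 1, against 6 with scaling and 1 to 2 without 1 library. The 6 include the 4 genes covered in full in every library, which scaling alone made lower. Of all genes, 39.7% were above in the 5 kb window and 59.1% were below with scaling.

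Scaling turned the H3K27ac differences of CEBPA (-0.53), CEBPD (-0.42), CEBPE (-0.84) and DDIT3 (-0.35) over the window, and of CEBPB (-0.05), CEBPD (-0.26) and CEBPE (-0.46) around the TSS. A -log10 q of at least 5 turned those of CEBPA (-1.08), CEBPE (-2.40) and DDIT3 (-0.90) over the window and CEBPE (-0.94) around the TSS. The number of peaks turned CEBPD over the window (-0.50). Equal peak numbers turned CEBPE over the window (-0.03), and a 20 kb flank CEBPG (0.06). Without 1 library, the range over the window was -0.07 to 0.80 for CEBPA, -0.05 to 0.10 for CEBPE and -0.81 to 0.36 for CEBPG. The H3K27ac difference in the CEBPA enhancer was -292.5 bp, against -3381.5 bp at a -log10 q of at least 5, -2708.2 bp with scaling and -1388.5 to 803.5 bp without 1 library. For H3K4me3 it was -21.5 bp, against -495.0 bp from 35 to 45 kb.

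Neither labels nor methods say that a replicate number pairs the libraries. The names of the deposited peaks share a tag between ATRA and control libraries of 1 number and mark, and what the tag stands for is not given. Deviations of same-numbered libraries correlated at 0.226 over H3K4me3 windows and 0.502 over H3K27ac windows. With a replicate block, the limma adjusted p at CEBPB was 0.0168 for H3K27ac over the window and 9.76e-06 outside H3K4me3 peaks, and 16.3% of all loci were then called higher for the former and 23.5% for the latter. No other difference of the 6 genes passed with the block. For H3K27ac over the window, 8 of the 20 myeloid genes (S100A9, S100A8, IL6R, ITGAM, MMP9, CD14, CSF1R and LCN2) were then called higher and 0 lower. Of the 12 partners, BATF2, BATF and TRIB1 were called higher and TRIB3 lower, and of the 12 stress genes, EIF2AK3 higher and TRIB3 and ASNS lower. The share of all loci called lower was 1.12%. With all loci in the fit, the limma adjusted p outside H3K4me3 peaks at CEBPB was 0.0447.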
